A study of Mus musculus with 6 samples.

Results

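The genes described here are 40 components of the TGF-β and BMP pathway, chosen by name, with earlier results of these data known. They comprise 10 ligands, 11 receptors, 7 extracellular inhibitors, 4 latent binding proteins and 8 Smads. All 40 were measured, each by a single probe set, among 19938 genes in all. Total RNA came from immortalized neural precursor-like cells of C57BL/6J mouse embryo brain, taken at embryonic day 13.5, either wild type for Lgi1 or with a homozygous deletion of it (called knock-out here). The protocol has immortalized cells of either genotype growing in RPMI medium with low serum. Each genotype was measured on 3 arrays of the Affymetrix Mouse Gene 1.0 ST type, which the labels call biological replicates. The labels give neither the immortalization method nor the number of embryos or lines behind the arrays, so the p-values rest on a spread among samples that may be technical in part.

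TGF-β, activin and BMP ligands are secreted dimers that bring together type I and type II receptor kinases on the cell surface. TGF-β and activin receptors phosphorylate Smad2 and Smad3, and BMP receptors phosphorylate Smad1, Smad5 and Smad9. These receptor Smads join Smad4 and act on transcription, while Smad6 and Smad7 inhibit the receptors. TGF-β is secreted in a latent complex with LTBP proteins of the matrix, and BMPs and activins are held off their receptors by soluble inhibitors such as noggin, gremlin and follistatin. In the embryonic brain BMPs pattern the dorsal midline and TGF-β acts in the meninges and the vessels.

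Array medians lay between 6.36 and 6.41 on the log2 scale. Lgi1 lay at background in both genotypes (wild-type mean 4.77 ± 0.168, knock-out mean 4.55 ± 0.0211, SD, n = 3 each; change −0.22, limma adjusted p = 0.075), so it does not check the labels. That small difference passed with a replicate block (adjusted p = 0.046), on centred arrays (0.039), with an intensity trend (0.046) and when wild-type replicate 1 was dropped (0.018). The background level used here is 5.68, the 95th percentile of 1194 olfactory and vomeronasal receptor genes. Mean Xist was 4.64 in wild type against 12.44 in the knock-out, and mean Eif2s3y, a Y-linked gene, was 10.19 against 4.67. The genotype therefore cannot be told apart from the sex of the embryos behind the cells, nor from any other difference between the lines. Of the 40 genes, Chrdl1 is the single X-linked one.

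The cells of both genotypes were also compared with markers of the tissue named in the labels. Of 12 neural progenitor markers, 6 fell and none rose in knock-out cells, and the summed log2 level was 100.9 to 101.4 on wild-type and 87.4 to 87.6 on knock-out arrays. Sox2, the factor that maintains neural progenitors, went from 11.26 to 5.35 and Pax6 from 7.12 to 5.44, both ending below the background level, Fabp7 went from 9.12 to 5.91 and Nes from 10.73 to 8.72, and Prom1 lay below it in both genotypes. Of 14 fibroblast and meninges markers, 13 rose and none fell, with a summed level of 96.7 to 97.5 on wild-type and 133.8 to 134.3 on knock-out arrays. The wild-type means of Col6a3, Lum, Pdgfra, Thy1 and Foxd1 lay below the background level, and every marker of that list was above it in knock-out cells. The largest rises of that list were Postn, from 6.36 to 12.12, and Col1a2, from 6.85 to 12.15. Of 7 endothelial markers 2 rose, Erg from 5.37 to 9.97 and Tek from 5.07 to 8.21, and 1 fell, Kdr from 5.21 to 4.77 (limma adjusted p = 0.017). Kdr, Pecam1, Cdh5, Cldn5 and Emcn lay below background in both genotypes. The summed level of the list was 34.5 to 35.3 on wild-type and 41.9 to 42.4 on knock-out arrays. Of 7 pericyte and smooth muscle markers 3 rose (Cnn1 by 4.65, Anpep by 2.31 and Rgs5 by 1.29) and 1 fell, with a summed level of 52.6 to 53.1 and 60.7 to 61.1. All 6 microglia markers lay below background in both genotypes. The lists of 8 neuron, 6 astrocyte and 6 measured oligodendrocyte lineage markers each had 1 rise and 1 fall, the largest being the fall of the astrocyte marker Aqp4 by 2.10. In bulk RNA a change in the number of cells of a type cannot be told apart from a change in RNA per cell. The part of the fibroblast, progenitor, endothelial and pericyte markers in the results below was not tested.

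Of the 40 pathway genes, 20 rose and 6 fell in knock-out cells, and 14 did not pass (limma, adjusted p under 0.05 over all genes). Among all genes 31.6% passed, 14% as higher and 17.6% as lower. At least 2-fold rises were found for 9 of the 40 genes and an at least 2-fold fall for 1, where 3.05% and 2.27% of all genes had such changes. The pathway genes were also brighter than most genes, with a median level of 8.04 against 6.5, and bright genes pass more often. In a fit to the 9969 genes above the median level, 53.5% passed and 22.8% passed as higher. There 21 of the 29 pathway genes above that level passed, 17 of them as higher. The median log2 fold change of the 40 genes was +0.24 and their mean +0.41, against −0.01 and 0.01 over all genes. The arrays of the genotypes did not overlap for 26 of the 40 genes and for 42.3% of all genes.

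**Figure D1:**
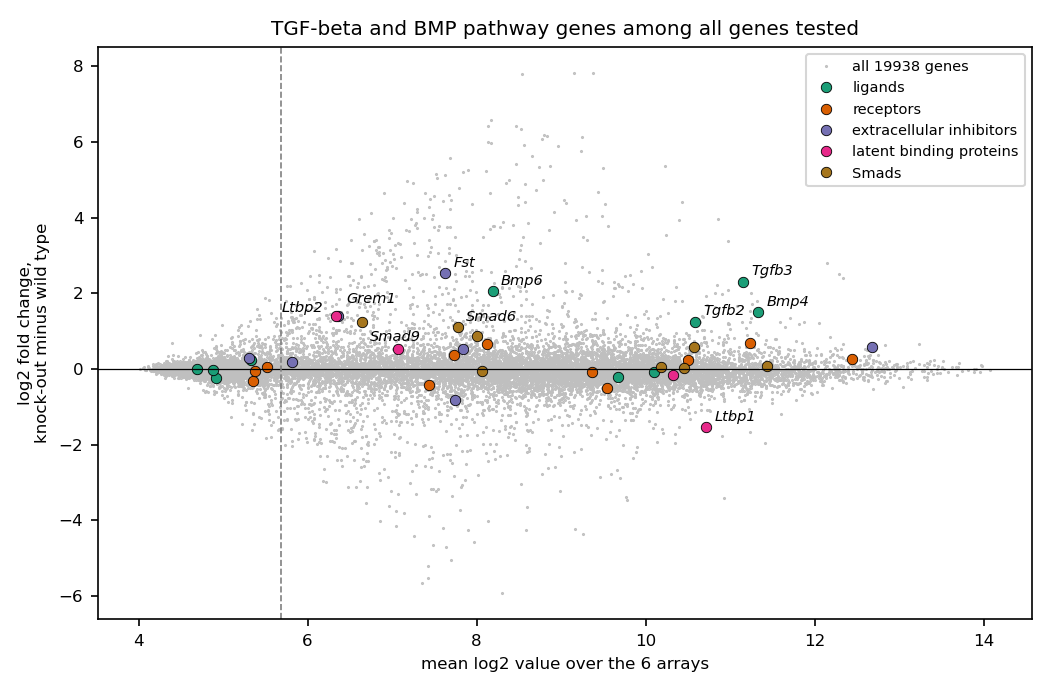
Log2 fold change (knock-out minus wild type) against the mean log2 value over the 6 arrays, with all 19938 genes in grey and the 40 pathway genes coloured by class; the dashed line is the background level of 5.68. The named genes passed the test with at least 2-fold changes, and 9 of these 10 lie above 0.

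Of the 10 ligands 4 changed at least 2-fold, all of them upward. Tgfb3, a TGF-β isoform, rose most, by 2.31 on the log2 scale (4.97-fold), and Bmp6 followed with 2.05 (4.13-fold). Bmp4, a BMP of the dorsal midline, rose by 1.50 and Tgfb2 by 1.25. Of the remaining 6 ligands Bmp2 fell by 0.24 and 5 did not pass. The median log2 fold change of the class was +0.12 and its range was −0.24 to +2.31.

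The Tgfb3 values were 9.95, 9.88 and 10.16 on wild-type arrays and 12.27, 12.36 and 12.29 on knock-out arrays. Every knock-out array lay above every wild-type array (log2 fold change SE 0.08, limma adjusted p = 7.2e-09), and by the size of its change it ranked 290 of 19938 genes. Tgfb2 read 9.95, 10.11 and 9.82 in wild-type and 11.33, 11.15 and 11.14 in knock-out cells, again without overlap (SE 0.09, adjusted p = 1.8e-06). Tgfb1, the isoform of most tissues, gave 10.13, 10.09 and 10.22 against 10.11, 9.97 and 10.11. Its arrays overlapped and the log2 fold change was −0.08, with a 95% interval of −0.24 to 0.07 (adjusted p = 0.43). The change of Tgfb1 minus that of Tgfb3 was −2.40 log2 units (SE 0.09), that of Tgfb1 minus Tgfb2 −1.34 (SE 0.14) and that of Tgfb2 minus Tgfb3 −1.06 (SE 0.19). Within-array differences did not overlap between genotypes for any of these pairs. With 3 arrays against 3 the exact permutation test cannot go below p = 0.1, and all 3 pairs had that value.

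Bmp6 values were 7.06, 7.34 and 7.10 on wild-type and 9.17, 9.12 and 9.35 on knock-out arrays. The groups stood apart by far more than the spread within either (SE 0.09, adjusted p = 5.1e-08). For Bmp4 the wild-type arrays read 10.64, 10.55 and 10.53 and the knock-out arrays 12.04, 12.15 and 12.04 (SE 0.06, adjusted p = 3.7e-08). Both ligands were above background in both genotypes. The close relatives of these ligands did not rise: Bmp5, of the same subgroup as Bmp6 and Bmp7, had means of 4.89 and 4.87, and Bmp7 had 4.69 and 4.68. Bmp2, the nearest relative of Bmp4, had means of 5.03 ± 0.0775 and 4.79 ± 0.0706 (SD, n = 3 each). Bmp2, Bmp5 and Bmp7 lay below the background level in both genotypes, where an array value says little about a transcript. The fall of Bmp2 (adjusted p = 0.019) did not pass without wild-type replicate 2 (adjusted p = 0.073) or without knock-out replicate 3 (adjusted p = 0.074), nor without moderation of the variances (adjusted p = 0.064).

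The activin subunits did not pass. Inhba, which forms activin A, read 9.78, 9.81 and 9.73 in wild-type and 9.52, 9.41 and 9.76 in knock-out cells (log2 fold change −0.21, adjusted p = 0.11). Knock-out replicate 3 lay within the wild-type range and the other knock-out arrays below it, and without that array Inhba fell by 0.31 (adjusted p = 0.011). It also passed on arrays centred on their medians (adjusted p = 0.048). Inhbb lay below background in both genotypes (5.21 and 5.45, adjusted p = 0.17).

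**Figure D2:**
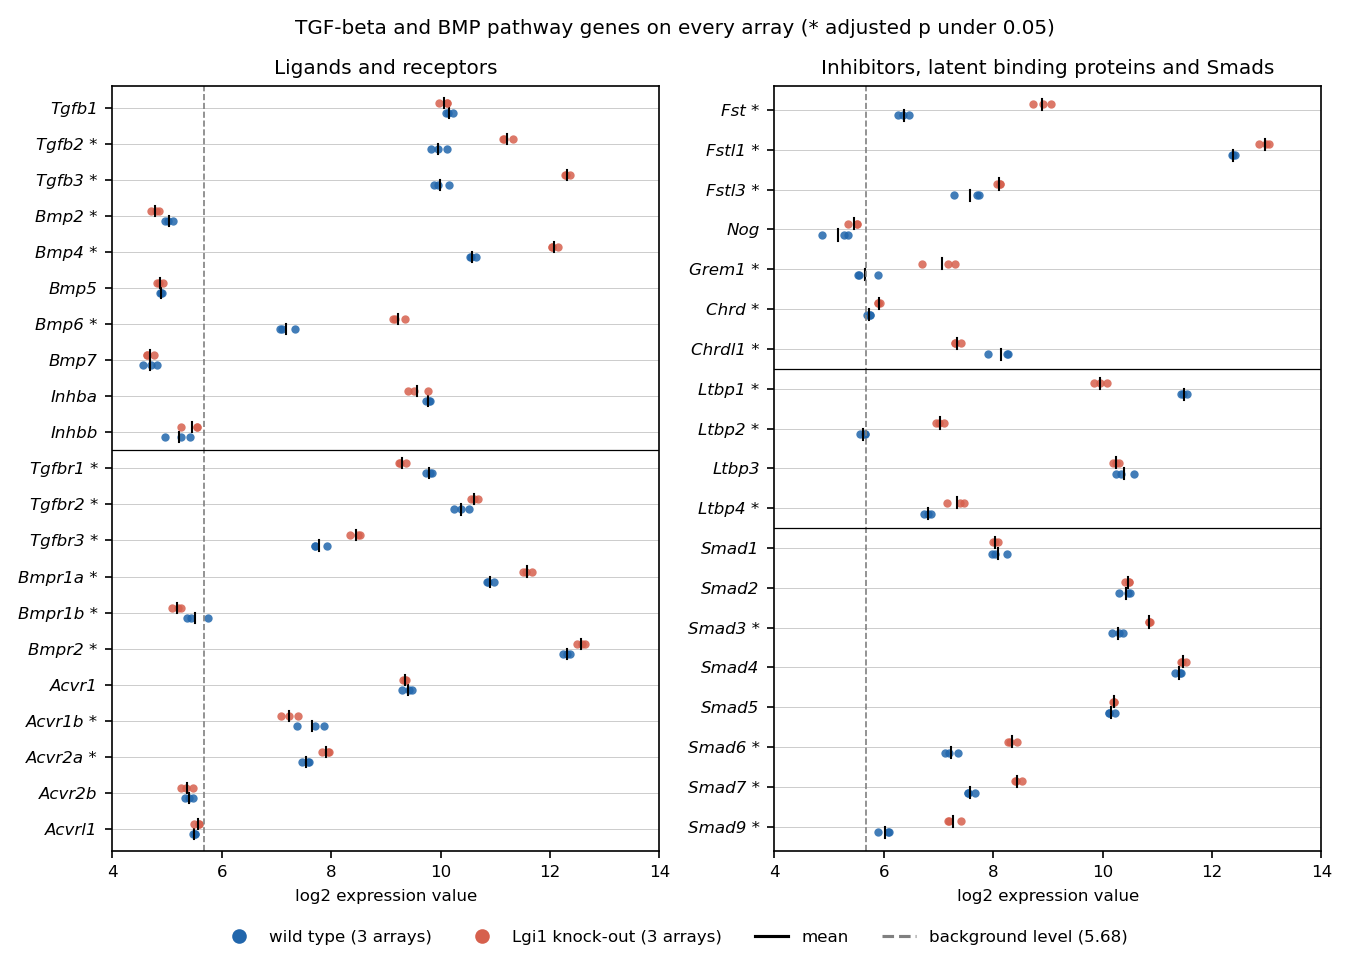
Log2 expression value of each of the 40 genes on each of the 6 arrays, wild type in blue and knock-out in red, with black ticks for the means of 3 arrays, a dashed line at the background level of 5.68 and horizontal lines between classes. Knock-out values of Tgfb3, Bmp6, Bmp4 and Fst lie to the right of all wild-type values, and those of Ltbp1 to the left.

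The sequences before the start sites are shown for the 4 genes with the largest changes that had a window, starting with Bmp6 and Bmp4, which both rose. They were searched for the short motifs to which Smads bind. The windows are from RefSeq (build GRCm38.p6), 250 bases before a start site, 5′ to 3′ on the strand of the gene. Capitals mark CAGAC, the Smad box, or GTCTG, the same box on the opposite strand, and GGCGCC, a GC-rich site of BMP Smads that reads the same on both strands and does not overlap CAGAC here. The Bmp6 window lies at chr13:38345466-38345715 on the plus strand and the Bmp4 window at chr14:46390670-46390919 on the minus strand.
Bmp6: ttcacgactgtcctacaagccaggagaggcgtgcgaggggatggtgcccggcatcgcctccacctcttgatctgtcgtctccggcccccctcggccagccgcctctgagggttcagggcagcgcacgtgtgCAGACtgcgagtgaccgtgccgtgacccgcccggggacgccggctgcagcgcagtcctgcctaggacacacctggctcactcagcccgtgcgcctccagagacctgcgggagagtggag
Bmp4: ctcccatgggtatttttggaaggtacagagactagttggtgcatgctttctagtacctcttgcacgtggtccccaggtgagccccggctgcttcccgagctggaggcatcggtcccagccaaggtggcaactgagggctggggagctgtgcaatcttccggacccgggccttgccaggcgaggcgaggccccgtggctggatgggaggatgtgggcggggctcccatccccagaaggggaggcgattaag
The Bmp6 window holds CAGAC once, beginning 119 bases before the start, and no GGCGCC. The Bmp4 window holds neither. Windows were found for 29 of the 40 genes, and not for Acvrl1, Bmp2, Bmp7, Chrdl1, Fst, Nog, Smad2, Smad4, Smad7, Tgfb3 and Tgfbr3. CAGAC was in a window of 14 of the 29 (48.3%), against 45.4% of the 15614 array genes with a window. GGCGCC was in a window of 8 of the 29 (27.6%), against 15% of those array genes. The windows of the pathway genes were richer in G and C (median 66.8% against 56.8%), and the part of that in the GGCGCC share was not tested.

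The receptors changed by small amounts in both directions, with 5 rises, 3 falls and no change of 2-fold or more. Bmpr1a, a type I receptor for BMPs, rose by 0.68 and Tgfbr3, the co-receptor betaglycan, by 0.67. Tgfbr1, the type I receptor of TGF-β, fell by 0.51. The median log2 fold change over the 11 receptors was +0.06.

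Bmpr1a read 10.98, 10.86 and 10.85 in wild-type and 11.67, 11.56 and 11.50 in knock-out cells, without overlap (SE 0.07, adjusted p = 3.1e-05). Tgfbr3 read 7.70, 7.70 and 7.93 in wild-type and 8.52, 8.49 and 8.35 in knock-out cells (SE 0.08, adjusted p = 0.00012). Tgfbr1 went the other way, from 9.73, 9.84 and 9.81 to 9.37, 9.23 and 9.26 (SE 0.07, adjusted p = 0.00017). Its partner Tgfbr2, the type II receptor that binds TGF-β, had means of 10.38 ± 0.130 and 10.62 ± 0.0593 (SD, n = 3 each; log2 fold change +0.24, adjusted p = 0.037). The change of Tgfbr1 minus that of Tgfbr2 was −0.75 log2 units (SE 0.09), and their within-array differences did not overlap between genotypes (exact permutation p = 0.1).

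The type II receptors of BMPs and activins rose where they passed. Bmpr2 went from 12.30 to 12.57 (adjusted p = 0.0093) and Acvr2a from 7.54 to 7.91 (adjusted p = 0.0014). Acvr2b lay below background in both genotypes and did not pass, as did Acvrl1, a type I receptor of endothelial cells. Acvr1, a further BMP type I receptor, had means of 9.40 and 9.34, and a 95% interval of its log2 fold change from −0.21 to 0.08. Acvr1b, the activin type I receptor, went from 7.65 ± 0.246 to 7.24 ± 0.160 (adjusted p = 0.025), and its arrays overlapped between genotypes. Bmpr1b, at 5.51 and 5.18, was below background in both genotypes although it passed as lower (adjusted p = 0.024).

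The calls of Tgfbr2, Acvr1b and Bmpr1b lay close to the threshold, and none of the 3 passed without moderation of the variances (adjusted p = 0.13, 0.18 and 0.15). Tgfbr2 lost its call on centred arrays (adjusted p = 0.093) and without any 1 of wild-type replicates 1 and 2 and knock-out replicates 1, 2 and 3, with adjusted p-values of 0.14, 0.092, 0.053, 0.12 and 0.083 in that order and log2 fold changes of 0.18 to 0.27. Acvr1b lost its call without wild-type replicates 1 or 3 or knock-out replicates 2 or 3 (adjusted p = 0.086, 0.079, 0.095 and 0.069; log2 fold changes from −0.41 to −0.31). Bmpr1b lost it without wild-type replicate 2 or knock-out replicates 1 or 2 (adjusted p = 0.063, 0.055 and 0.09; log2 fold changes from −0.34 to −0.22). Without knock-out replicate 2 only 5 of the 11 receptors passed.

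**Figure D3:**
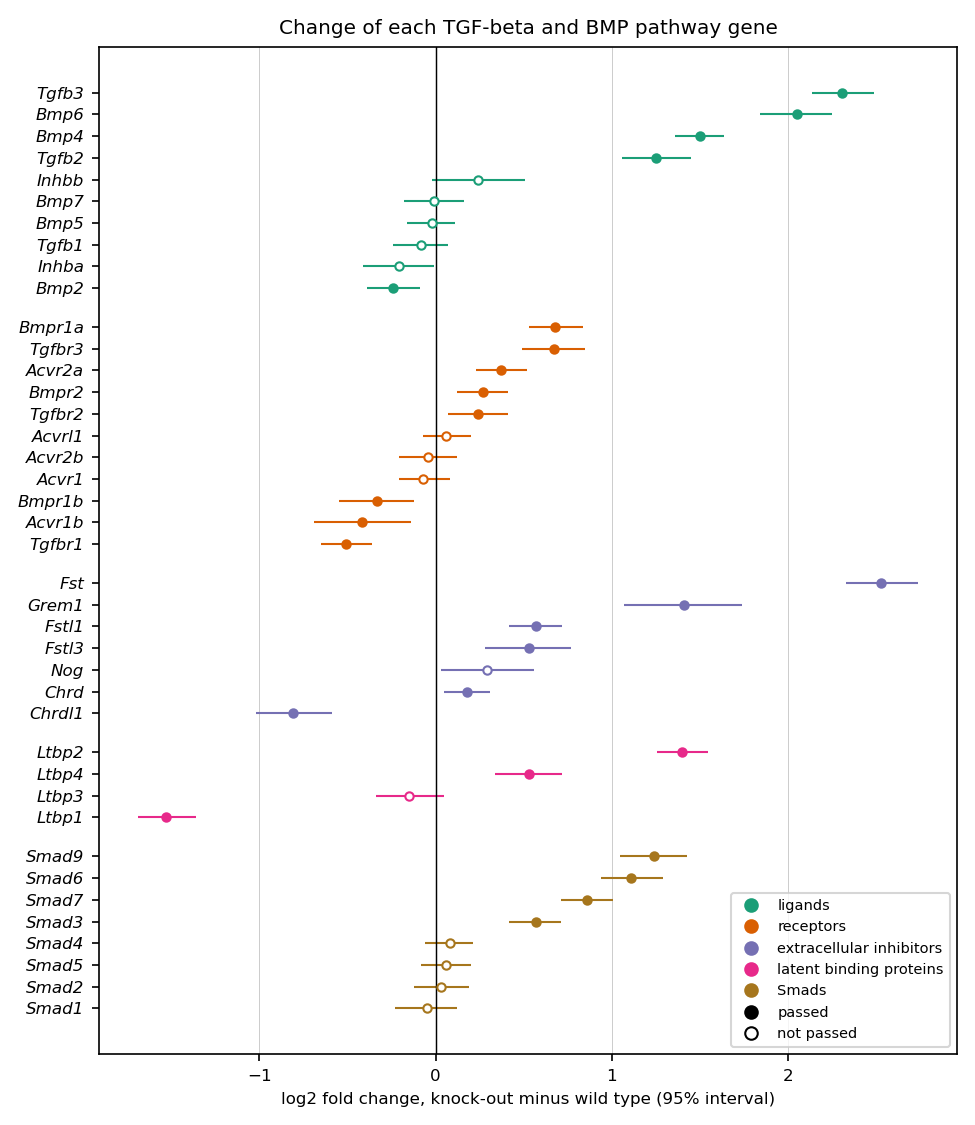
Log2 fold change of each gene, knock-out minus wild type, with its unadjusted 95% interval from the moderated fit, ordered by size within each class; filled points passed at an adjusted p under 0.05. The receptors lie between −0.51 and 0.68, while ligands reach 2.31, extracellular inhibitors 2.53 and latent binding proteins −1.53.

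Extracellular inhibitors rose in 5 of 7 cases, with a median log2 fold change of +0.53. Fst, or follistatin, which binds activins, had the largest change of the 40 genes, a rise of 2.53 (5.79-fold). Grem1, or gremlin, an antagonist of BMP2, BMP4 and BMP7, rose by 1.41. Fstl1 and Fstl3, relatives of follistatin, rose by 0.57 and 0.53. Chrdl1, a chordin-like BMP antagonist, fell by 0.81.

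Fst read 6.36, 6.46 and 6.27 on wild-type and 9.06, 8.72 and 8.91 on knock-out arrays, with a gap of more than 2 log2 units between the groups (SE 0.09, adjusted p = 1e-08). Its rise exceeded that of Fstl3 by 2.01 log2 units (SE 0.13; exact permutation p = 0.1, within-array differences without overlap). Grem1 read 5.89, 5.53 and 5.54 against 7.30, 6.70 and 7.18, the widest spread of any of the 40 genes within a genotype (SD 0.315 in knock-out cells). Its groups did not overlap (adjusted p = 4.8e-05), and the wild-type mean of 5.65 lay below the background level, so the size of its fold is uncertain. Chrdl1 read 7.91, 8.26 and 8.27 in wild-type and 7.42, 7.30 and 7.30 in knock-out cells (adjusted p = 0.00011). It is encoded on the X chromosome, and these genotypes differed in Xist.

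Fstl1 was bright in both genotypes (12.40 ± 0.0359 and 12.97 ± 0.0949, SD, n = 3 each; adjusted p = 9.6e-05). Fstl3 went from 7.58 ± 0.252 to 8.11 ± 0.0334 (adjusted p = 0.0039; 0.083 without moderation of the variances). The classical BMP antagonists of the embryonic organizer moved little. Chrd, or chordin, had means of 5.74 and 5.91, close to background, and passed with a rise of 0.18 (adjusted p = 0.037). It did not pass when any of the 6 arrays was left out (adjusted p from 0.069 to 0.1), nor after quantile normalization or centring of the arrays (adjusted p = 0.11 in both) or with an intensity trend (0.086). Nog, or noggin, lay below background in both genotypes and did not pass (adjusted p = 0.087), although it did without wild-type replicate 2 (adjusted p = 0.04).

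The Grem1 window at chr2:113758649-113758898 on the minus strand is shown, in the same notation, as the single one of the printed windows that holds GGCGCC.
Grem1: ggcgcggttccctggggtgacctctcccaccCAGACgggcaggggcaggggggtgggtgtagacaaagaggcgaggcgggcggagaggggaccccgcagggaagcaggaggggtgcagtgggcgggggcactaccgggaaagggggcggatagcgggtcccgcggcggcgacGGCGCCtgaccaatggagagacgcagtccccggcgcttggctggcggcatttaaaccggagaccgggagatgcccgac
GGCGCC begins 78 and CAGAC 219 bases before the start.

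The latent TGF-β binding proteins moved in opposite directions. Ltbp1 fell by 1.53 on the log2 scale, the single fall of at least 2-fold among the 40 genes (2.88-fold). Ltbp2, which unlike its relatives does not bind latent TGF-β, rose by 1.40 and Ltbp4 by 0.53. Ltbp3 did not pass.

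Ltbp1 read 11.43, 11.47 and 11.55 in wild-type and 9.95, 9.85 and 10.08 in knock-out cells, without overlap and with a wide gap (SE 0.07, adjusted p = 9.8e-08). Ltbp2 read 5.65, 5.57 and 5.66 in wild-type and 7.01, 7.11 and 6.96 in knock-out cells (SE 0.06, adjusted p = 7.2e-08). The wild-type values of Ltbp2 lay just under background, so the size of its fold is uncertain too. The change of Ltbp1 minus that of Ltbp2 was −2.93 log2 units (SE 0.12), the widest difference of the 21 pairs of relatives or partners compared. Ltbp4 read 6.86, 6.74 and 6.81 against 7.16, 7.47 and 7.39 (adjusted p = 0.00072). Ltbp3 read 10.33, 10.25 and 10.58 against 10.19, 10.25 and 10.30, overlapping between genotypes (log2 fold change −0.15, adjusted p = 0.26). The change of Ltbp1 minus that of Ltbp3 was −1.38 (SE 0.09), and minus that of Ltbp4 it was −2.06 (SE 0.13).

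RefSeq gives Ltbp1 a pair of start sites, and the windows of both are printed because this gene had the largest fall. The first lies at chr17:75005279-75005528 and the second at chr17:75178531-75178780, both on the plus strand.
Ltbp1, first start: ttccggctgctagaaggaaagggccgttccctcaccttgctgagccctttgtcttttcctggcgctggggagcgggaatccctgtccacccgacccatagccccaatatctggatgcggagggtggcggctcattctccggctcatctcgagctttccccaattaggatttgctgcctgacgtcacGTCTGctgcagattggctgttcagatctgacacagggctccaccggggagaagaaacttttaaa
Ltbp1, second start: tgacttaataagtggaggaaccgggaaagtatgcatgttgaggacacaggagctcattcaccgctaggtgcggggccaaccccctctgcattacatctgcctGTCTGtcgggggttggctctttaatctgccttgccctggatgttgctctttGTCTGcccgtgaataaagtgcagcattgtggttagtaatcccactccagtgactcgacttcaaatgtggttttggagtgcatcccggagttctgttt
The first window holds the Smad box as GTCTG, 64 bases before the start. The second holds GTCTG beginning 148 and 97 bases before the start. Neither holds GGCGCC. The single probe set of Ltbp1 does not separate transcripts of the 2 start sites.

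Among the Smads, the inhibitory members and part of the receptor-regulated members rose, and none fell. Smad9 rose by 1.24 and Smad6 by 1.11, each more than 2-fold, and Smad7 by 0.86 and Smad3 by 0.57. Smad1, Smad2, Smad4 and Smad5 did not pass. All 8 Smads were above background in both genotypes.

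Smad6, which inhibits BMP receptors, read 7.12, 7.36 and 7.20 in wild-type and 8.31, 8.43 and 8.28 in knock-out cells (SE 0.08, adjusted p = 1.8e-06). Smad7, which inhibits both TGF-β and BMP receptors, read 7.54, 7.67 and 7.54 against 8.40, 8.52 and 8.41 (SE 0.07, adjusted p = 4.4e-06). In both genes the knock-out arrays all lay above the wild-type arrays. The rise of Smad6 exceeded that of Smad7 by 0.25 (SE 0.04; exact permutation p = 0.1).

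Smad9, the least studied of the BMP receptor Smads, read 6.09, 6.07 and 5.90 in wild-type and 7.41, 7.20 and 7.17 in knock-out cells (SE 0.08, adjusted p = 1.5e-06). Its relatives Smad1 and Smad5 had log2 fold changes of −0.05 (95% interval −0.23 to 0.12) and 0.06 (−0.08 to 0.20). The change of Smad1 minus that of Smad9 was −1.29 (SE 0.18) and that of Smad5 minus Smad9 −1.18 (SE 0.13), and within-array differences did not overlap for either pair. Smad3 read 10.18, 10.30 and 10.38 in wild-type and 10.85, 10.85 and 10.86 in knock-out cells (SE 0.07, adjusted p = 9.1e-05). Smad2, the other Smad of TGF-β and activin receptors, had means of 10.43 and 10.46 (95% interval −0.12 to 0.19). Smad4, the shared partner, had 11.40 and 11.47 (−0.06 to 0.21).

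Of the 21 pairs of relatives or partners, 19 had within-array differences that did not overlap between genotypes. The exceptions were Bmp5 with Bmp7 and Nog with Chrd. In each at least 1 gene lay below background, which also held for some of the 19, such as Bmp5 with Bmp6 and Bmpr1a with Bmpr1b. All 19 had the smallest p the exact permutation test allows, 0.1 (0.11 after Benjamini-Hochberg adjustment over the 21 pairs), so no pair could pass a threshold of 0.05 in this design. The pairs were chosen with earlier results known, and the share over pairs of other genes was not computed. Taken singly, 42.3% of all genes did not overlap between genotypes, so the count of 19 is not read as a trait of these pairs.

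Other genes of the pathway were taken from lists by role. Of 92 measured further genes 26 rose, 19 fell and 47 did not pass (48.9% called, against 31.6% of all genes), with a median log2 fold change of 0.03. Further ligands were mostly at background: 18 of 22 lay below background in both genotypes, and 4 rose. Inha, the inhibin α subunit that antagonizes activin, rose by 1.07 (from 5.77 to 6.84), Bmp1, a protease that matures collagen and cleaves chordin, by 0.61 and Gdf10 by 0.51, the last below background in both genotypes. Of 10 further receptors and co-receptors 4 rose and 1 fell. Bambi, a pseudoreceptor that blocks TGF-β and BMP signalling, had means of 7.06 ± 0.0858 and 8.36 ± 0.114 (n = 3 each, SD), a rise of 1.30 (adjusted p = 4.8e-07). The co-receptor Eng rose by 0.82, from a wild-type mean of 5.32 below background, and the BMP co-receptor Rgmb fell by 0.49. Gdf10 and Eng did not pass without moderation of the variances (adjusted p = 0.11 for each).

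Further extracellular regulators gave 4 rises and 4 falls of 17. Emilin1, a matrix protein that blocks processing of TGF-β precursors, rose from 6.14 to 8.67 (log2 fold change 2.52, SE 0.11). The serine protease Htra3 rose by 1.45 and its relative Htra1 fell by 1.77, from 11.79 to 10.02. Bmper, a BMP binding protein, fell by 1.27. Among 10 genes of latency and release 4 rose and 2 fell. Itgb8, the integrin chain that with αv releases latent TGF-β, fell from 10.84 to 9.38 (log2 fold change −1.46, SE 0.09), and the αv chain Itgav fell by 0.44. Fbn2, a microfibril protein that binds these complexes, rose by 1.39, and Pcsk6, a proprotein convertase, by 0.97. The wild-type mean of Pcsk6 (5.33) lay below background, so the size of its fold is uncertain, as for Eng and Htra3. The convertase Furin did not pass (log2 fold change −0.07, adjusted p = 0.49).

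The intracellular regulators moved the other way in number, with 2 rises and 7 falls of 14 and a median of −0.16. Smurf2, a ubiquitin ligase that acts on Smads and receptors, rose by 0.91 and the Smad corepressor Ski by 0.50. The largest fall was that of Trim33, which binds Smad2 and Smad3 (−0.44, SE 0.08). Smurf1 had 9.56 and 9.50 (adjusted p = 0.57).

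Known target genes of the pathway did not move as 1 block. Of 23 measured, of which Ltbp2 is also among the 40 genes and Skil, Tgif1 and Pmepa1 are also among the intracellular regulators, 9 rose, 6 fell and 8 did not pass, with a median of +0.10. Tgfbi, a matrix protein named for its induction by TGF-β, had the largest rise of the list. It read 6.24, 5.96 and 6.18 on wild-type and 11.04, 10.85 and 11.13 on knock-out arrays (log2 fold change 4.88, SE 0.09, adjusted p = 1.2e-10). Snai2, a transcription factor of mesenchymal and neural crest cells, rose by 3.05. The matrix genes Col1a1 and Fn1 rose by 1.23 and 0.66. Col1a1 and Snai2 are also on the fibroblast and neural crest marker lists. Of the 6 neural crest markers Snai2 was the only one to rise. Ets1 and Tfap2a fell (log2 fold changes −0.92 and −0.70) and 3 did not pass.

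The Id inhibitors of basic helix-loop-helix factors, which are among the known BMP targets, rose in 3 of 4 cases. Id1 read 6.06, 6.29 and 6.09 in wild-type and 7.76, 7.33 and 7.40 in knock-out cells (log2 fold change 1.35, adjusted p = 6.9e-06). Id2 rose by 1.34 (SE 0.20), with wild-type arrays as far apart as 10.50 and 11.44 and an adjusted p of 0.051 without moderation, and Id3 by 0.88. Id4 lay below background in both genotypes (adjusted p = 0.44). Atoh8 rose from 7.27 to 8.58. Among the falls were Hey1 (−1.15), Msx2 (−0.79), Klf10 (−0.77), Junb (−0.63), Cdkn2b (−0.59) and Skil (−0.37). Msx2 went from 6.08 to 5.29, ending below background, and Msx1 lay below it in both genotypes and did not pass (limma adjusted p = 0.63). Klf10, Junb, Cdkn2b and Skil are early TGF-β targets as well as targets of other signals. The list was not split into BMP and TGF-β targets, and some genes that fell, such as Hey1 and Msx2, have no such label here. No direction is therefore given for either group. Pmepa1, a feedback inhibitor induced by TGF-β, had 11.09 ± 0.147 and 11.34 ± 0.130 and did not pass (adjusted p = 0.068), but passed with a replicate block (adjusted p = 0.0085). Dropping wild-type replicate 2 (0.028) or knock-out replicate 1 (0.041) also brought its adjusted p under the threshold, as did an intensity trend (0.043) and the restriction to genes above the median level (0.046). Acta2, smooth muscle actin, was at 13.25 and 13.41 (adjusted p = 0.18). These values concern RNA, and neither Smad phosphorylation nor protein was measured.

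**Figure D4:**
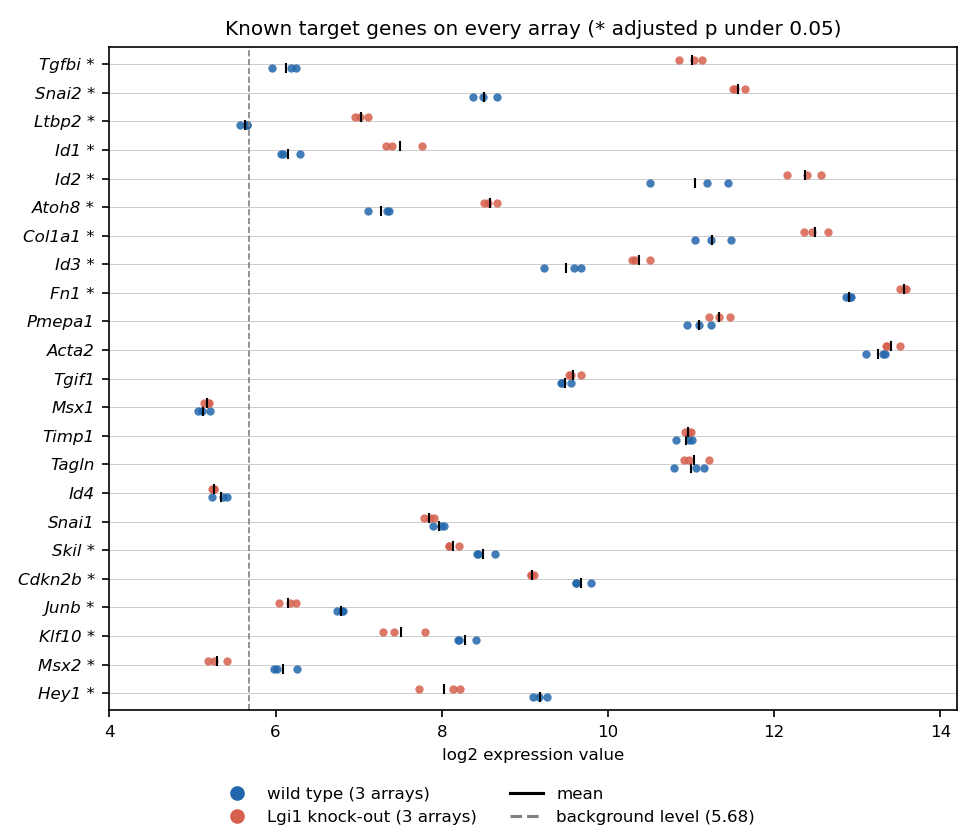
Log2 expression value of the 23 measured target genes on each of the 6 arrays, wild type in blue and knock-out in red, with black ticks for means of 3 arrays and a dashed line at the background level of 5.68, ordered from the largest rise to the largest fall. Tgfbi shifts from near 6 to near 11, and the genes from Skil to Hey1 at the bottom lie to the left in knock-out cells.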

How the data were processed

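The deposited table holds 1 log2 value per probe set and array for 35556 probe sets, with the log2 scale judged from its range. The submitters' processing notes name Partek; how background, normalization and probe sets were handled is not stated in the sources at hand. The authors' values were used without further normalization. Depth does not apply to arrays, whose number limits the precision.

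GEO's platform annotation gave 1 symbol to 21789 probe sets, several to 1621 and none to 12146. For genes with several probe sets the one with the highest mean was kept, leaving 19938 genes. Genotypes came from the sample titles, and no array was left out. The genotypes were compared in R 4.3.3 by limma 3.58.1 (lmFit, eBayes, 2-sided) with Benjamini-Hochberg adjustment over all genes, and a gene passed at an adjusted p under 0.05. Pairs of genes were compared by the exact permutation test, 2-sided, on within-array differences. On simulated data for this comparison (19938 genes), 74%, 96%, 100% and 100% of 50 genes each were recovered at log2 changes of 0.5, 1, 2 and 4, and 9 unchanged genes were called. The simulation changed only these genes and drew independent normal noise without a replicate effect, whereas 31.6% of all genes passed in the data. Its rates are therefore not those of the data.

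Deviations from the mean of each genotype had correlations of 0.19 to 0.29 for the 3 pairs of arrays with the same replicate number in the titles. For the 6 other pairs of arrays they were −0.18 to −0.0047. Subtracting the genotype means pulls these values down when the same-number values are positive, so they are not separate evidence. By the first range alone, arrays of the same number may be paired. The fit reported has no block, and the exact permutation test treats the arrays as independent, so neither uses such a pairing. A replicate block was an alternative fit.

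The 40 genes, the lists and the pairs were chosen with earlier results of these data known. Values on every array are given for genes called with at least 2-fold changes and the 2 largest called changes of each class, and for further genes chosen after their values were seen. Of the other pathway lists the 3 largest called changes are named, as are further genes of these and of the marker lists chosen after their values were seen. Alternatives were other normalizations, filters, probe set rules, moderation, thresholds and each array left out; a fit without X and Y genes was added after the data were seen. The table of protein sequences planned for the TGF-β isoforms was not used here.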

Additional observations from a re-analysis of the deposited data

How the results depend on the processing

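Of the 26 pathway genes that passed, 20 passed in each of the 17 other fits that tested them, and none changed direction. The 6 that lost the call in at least 1 fit were Tgfbr2, Chrd, Acvr1b, Bmp2, Bmpr1b and Fstl3. With the replicate number as a block 20 rose and 6 fell, and 7000 genes passed in all; the block changed no call of the 40 genes. Without moderation of the variances 3 pathway genes fell and 5 receptors passed, and at an adjusted p under 0.01 these counts were also 3 and 5. Asking for at least 2-fold changes as well left 1061 genes in all, 9 of the pathway genes higher and 1 lower, 0 receptors, 2 extracellular inhibitors and 2 Smads. Leaving out single arrays gave 5 to 7 receptors. Without genes of chromosomes X and Y, an alternative chosen after the data were seen, 20 rose and 5 fell, since Chrdl1 was not tested. Signs changed only among genes and pairs that did not pass. The log2 fold change of Smad2 was −0.01 with the arrays centred on their medians and −0.03 to 0.08 with single arrays left out. The same range was −0.08 to 0.05 for Bmp7, −0.05 to 0.00085 for Bmp5, −0.10 to 0.01 for Acvr2b and −0.11 to 0.03 for Smad1. The pair difference went from −0.08 to 0.06 for Bmp5 and Bmp7 and from −0.01 to 0.20 for Nog and Chrd. The causes of these shifts were not tested, apart from fewer arrays or a stricter threshold by construction. Signal limits what can be said of the 8 pathway genes below background in both genotypes, and of the fold of the 2 that were above it only in knock-out cells, Grem1 and Ltbp2.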
